A study of Homo sapiens with 6 samples.

Results

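SWI/SNF chromatin remodellers exist in 3 forms, called BAF, PBAF and ncBAF, and the 30 genes described here encode their subunits. The members were taken by symbol from the deposited count table of 60662 genes. All 30 were found and all 30 had enough reads to be tested. By complex, 5 genes belong to BAF alone (ARID1A, ARID1B, DPF1, DPF2, DPF3), 4 to PBAF alone (ARID2, PBRM1, BRD7, PHF10) and 3 to ncBAF alone (BRD9, BICRA, BICRAL), and the other 18 were treated as shared.

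SWI/SNF complexes spend ATP to slide or evict nucleosomes, which opens DNA to transcription factors. Each complex holds a single ATPase, SMARCA4 or SMARCA2, on a common core, and is told apart by the targeting subunits added to it: ARID1A or ARID1B with a DPF protein in BAF, ARID2 with PBRM1, BRD7 and PHF10 in PBAF, and BRD9 with BICRA or BICRAL in ncBAF. Many subunits come as paralogs that occupy the same position and exclude each other, and several genes of the family are recurrently mutated in cancer. Not every gene treated as shared is found in all 3 forms. For example, SMARCB1 and SMARCE1 are absent from ncBAF, and SS18 is absent from PBAF.

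The human prostate cancer line DU-145 was grown in 6 cultures, all with a stable vector for a tetracycline-inducible hairpin against MUC1. The 3 DOX-negative cultures had vehicle for 7 days and the 3 DOX-positive cultures had doxycycline (DOX) for as long, and 24 hours of interferon-gamma (IFN-gamma, 10 ng/ml) followed in all 6. Cells without IFN-gamma, or with a control hairpin under DOX, were not analysed here, so the effects of DOX and of the hairpin cannot be told apart. The title of the series joins MUC1-C, the transmembrane subunit of the MUC1 mucin, to IFN-gamma signalling and chromatin remodelling, and the question for these genes is how their RNA differed once the hairpin had been induced.

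In keeping with the labels, the hairpin's target was high without DOX, where MUC1 stood at 20.4, 21.8 and 22.2 CPM (reads of a gene scaled to the size of its library), and low with it, at 1.53, 1.31 and 1.32 CPM. Libraries held 87739734 to 150921436 reads, and the limit of 3 reads that an observed 0 allows, for counting error alone, stood for 0.0204 to 0.0328 CPM. Of the 5 epithelial markers looked at (KRT8, KRT18, KRT19, EPCAM and CDH1) all 5 were high in every library and all 5 rose, their summed level going from 813 to 864 CPM in DOX-negative libraries to 2261 to 2350 CPM in DOX-positive ones. The 5 neural markers summed to 30.1 to 31.2 CPM and then 10.4 to 10.7 CPM, most of it MAP2, which fell (log2 fold change -1.92). They did not move together: SYP rose (1.19), TUBB3 did not pass the test (0.004), and DCX and ELAVL3 were at or near 0. The 4 leukocyte markers summed to at most 0.262 CPM in any library, with CD3E at 0, and the 4 endothelial and fibroblast markers to 4.77 to 7.53 CPM, most of it COL1A1. The part of these marker changes in the subunit results was not tested.

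Most subunit genes changed after DOX, by small amounts and in both directions. Of the 30 members, 10 rose, 15 fell and 5 did not pass the test (edgeR's quasi-likelihood test, Benjamini-Hochberg adjusted p under 0.05 over all 24695 genes tested). Among all genes tested 56.5% passed, 27.6% higher and 28.9% lower, against 83.3% of the members. Better expressed genes passed more often. With a filter of 1 CPM in 3 libraries, 5751 of 15279 genes were higher and 5543 lower, and 10 and 15 of the members. Of the 46 other remodellers described below 67.4% passed. The groups did not overlap in 26 of the 30 members, against 62.4% of all genes. The median log2 fold change of the members (DOX-positive over DOX-negative) was -0.08, against -0.04 for all genes. The median size of the change, without its sign, was 0.25 for the members, 0.37 for all genes tested and 0.30 for the 15486 genes with a mean of at least 1 CPM in a group. In bulk RNA, fewer cells with a transcript and less transcript per cell cannot be told apart.

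These counts use TMM scaling, whose factors were 1.04 to 1.06 in the DOX-negative libraries and 0.941 to 0.958 in the DOX-positive ones. Scaling by library size alone lowered the median of all genes by 0.14 on the log2 scale, and the members then split into 4 higher and 19 lower, while all genes tested split into 4689 higher and 9579 lower. With upper-quartile scaling 9 rose and 16 fell, and with the size factors of DESeq2 10 rose and 13 fell. Members whose call or sign changed with the scaling are named where they are described.

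**Figure D1:**
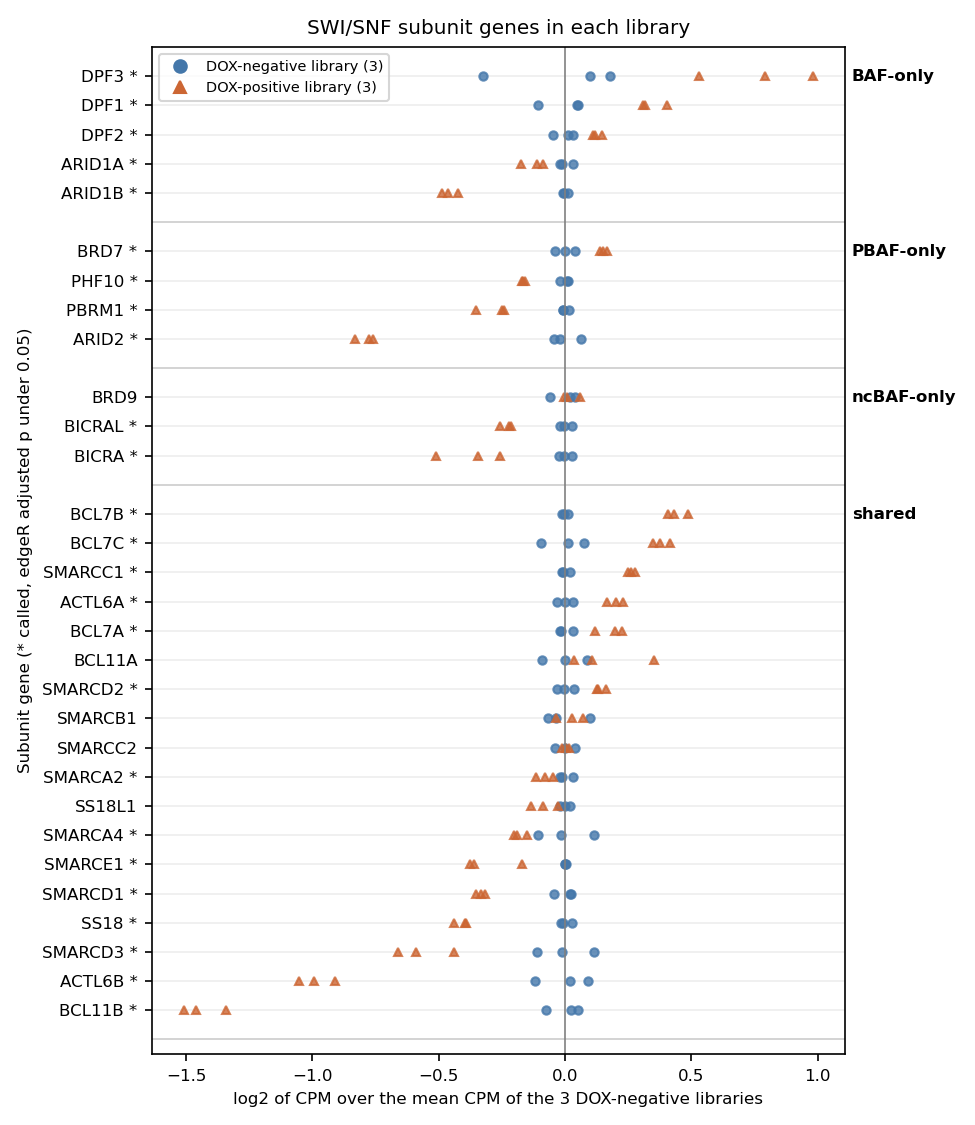
Each point is the log2 ratio of a library's CPM (TMM-scaled) to the mean of the 3 DOX-negative libraries (horizontal axis) for a subunit gene (vertical axis); circles are DOX-negative and triangles DOX-positive libraries, and an asterisk marks the 25 genes past the edgeR test. ARID2, ACTL6B and BCL11B lie farthest below 0 in the DOX-positive libraries, and DPF3 and BCL7B farthest above it.

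Among the BAF-only genes the 2 ARID1 genes fell and the 3 DPF genes rose. ARID1A (ENSG00000117713.20, chromosome 1, 26693236 to 26782110, plus strand, GRCh38), which encodes the DNA-binding scaffold most often mutated in cancer, was at 220.4, 221.3 and 228.1 CPM without DOX and at 206.9, 197.8 and 210.1 CPM with it. The groups did not overlap, but the fall was only 1.09-fold (log2 fold change -0.12, SE 0.03, edgeR adjusted p = 0.00505). ARID1A no longer passed under the size factors of DESeq2 (adjusted p = 0.0752), nor when DOX-negative replicate 3 (0.0854) or DOX-positive replicate 2 (0.0694) was left out. Its paralog ARID1B (ENSG00000049618.23, chromosome 6, 156776020 to 157210779, plus strand) was at 122.2, 122.0 and 123.6 CPM and then at 87.5, 89.0 and 91.4 CPM. Every DOX-positive library was far below every DOX-negative one, a 1.37-fold fall (log2 fold change -0.46, SE 0.03, edgeR adjusted p = 2.61e-09).

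The DPF genes encode PHD-finger proteins that read acetylated and crotonylated histone H3. DPF2, the member of the family expressed in most tissues, was at 90.7, 86.0 and 89.6 CPM without DOX and at 96.4, 95.8 and 98.2 CPM with it. That was a rise from 88.8 ± 2.47 to 96.8 ± 1.26 CPM (SD, n = 3; log2 fold change 0.12, SE 0.03, edgeR adjusted p = 0.00359), which did not pass with upper-quartile scaling (adjusted p = 0.0629) and became -0.02 with library size alone. DPF1 was far lower, at 3.85, 3.86 and 3.46 CPM and then 4.62, 4.64 and 4.93 CPM. It rose 1.27-fold (log2 fold change 0.34, SE 0.09, edgeR adjusted p = 0.00475), a call lost with library size alone (0.0817). DPF3 had 93, 97 and 81 reads in the DOX-negative libraries and 126, 207 and 162 in the DOX-positive ones, that is 0.936, 0.661 and 0.885 CPM against 1.20, 1.43 and 1.63 CPM. This difference, 0.79 on the log2 scale (SE 0.19, edgeR adjusted p = 0.00163), was the largest rise among the 30 members, on the fewest reads of any member that rose.

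Of the 4 PBAF-only genes 3 fell and 1 rose, and PBAF held the largest fall among the 12 genes particular to a single complex. ARID2 (ENSG00000189079.17, chromosome 12, 45729665 to 45908040, plus strand), which takes in PBAF the place that ARID1A or ARID1B has in BAF, was at 148.7, 146.6 and 157.5 CPM without DOX. With DOX it was at 84.9, 89.1 and 88.1 CPM. The 1.73-fold fall (log2 fold change -0.79, SE 0.04, edgeR adjusted p = 1.42e-11) left a wide gap between the groups. PBRM1 (ENSG00000163939.18, chromosome 3, 52545352 to 52685917, minus strand), which carries a row of bromodomains that bind acetylated histones, was at 92.3, 92.6 and 94.0 CPM and then at 72.8, 78.2 and 78.6 CPM. It fell 1.22-fold (log2 fold change -0.28, SE 0.03, edgeR adjusted p = 2.86e-06), with DOX-positive replicate 1 the lowest library.

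PHF10 (ENSG00000130024.15, chromosome 6, 169703905 to 169725566, minus strand), the PHD-finger protein that stands in PBAF where a DPF protein stands in BAF, was at 70.0, 68.3 and 69.8 CPM and then at 61.6, 61.9 and 62.2 CPM. The fall was small but tight, from 69.4 ± 0.907 to 61.9 ± 0.298 CPM (SD, n = 3; log2 fold change -0.16, SE 0.03, edgeR adjusted p = 0.000137). BRD7 (ENSG00000166164.15, chromosome 16, 50313487 to 50368934, minus strand), a bromodomain protein, went the other way. It was at 80.3, 78.2 and 76.0 CPM and then at 87.7, 86.0 and 86.7 CPM, a 1.11-fold rise (log2 fold change 0.15, SE 0.03, edgeR adjusted p = 0.000713) that came to 0.01 with library size alone (adjusted p = 0.857). BRD7 shares 42.3% of its annotated exon bases with ADCY7 on the opposite strand, and ADCY7 itself fell from 18 to 9.41 CPM (edgeR adjusted p = 1.35e-09). Whether the counting separated the strands is not given in the sources used here, so reads of either gene may be in the count of the other. PHF10 likewise shares 3.33% of its exon bases with C6orf120 on the opposite strand, which rose (log2 fold change 0.77). Of the 30 members, 16 share some exon bases with another annotated gene, and not all of these overlaps are named. The part of the overlaps in the counts was not tested.

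Of the 3 ncBAF-only genes 2 fell and 1 did not pass. BICRA (ENSG00000063169.10, chromosome 19, 47608196 to 47703277, plus strand) and BICRAL (ENSG00000112624.12, chromosome 6, 42746958 to 42868560, plus strand) are paralogous scaffolds that hold ncBAF together. BICRA was at 27.1, 27.7 and 26.7 CPM without DOX and at 21.4, 19.0 and 22.7 CPM with it, a 1.29-fold fall (log2 fold change -0.37, SE 0.05, edgeR adjusted p = 1.51e-05). BICRAL was at 79.1, 78.3 and 80.8 CPM and then at 66.4, 68.0 and 68.5 CPM, a 1.17-fold fall (log2 fold change -0.23, SE 0.03, edgeR adjusted p = 6.33e-06). Neither gene's groups overlapped, and the DOX-positive spread was wider in BICRA, where replicate 2 was lowest.

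BRD9 (ENSG00000028310.18, chromosome 5, 850291 to 892824, minus strand), the bromodomain subunit that defines ncBAF, was at 37.7, 38.2 and 35.7 CPM and then at 37.4, 37.1 and 38.7 CPM. Its groups overlapped and its log2 fold change was 0.02 (SE 0.04, edgeR adjusted p = 0.666). The value turned to -0.04 with upper-quartile scaling and -0.02 with a filter of 1 CPM. With library size alone it was -0.12, and BRD9 was then called lower (edgeR adjusted p = 0.00826).

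Across the 18 shared genes 6 rose, 8 fell and 4 did not pass, and their median log2 fold change was -0.04. By class the median was 0.12 for the BAF-only, -0.22 for the PBAF-only and -0.23 for the ncBAF-only genes, over 5, 4 and 3 genes. The BAF-only median is the value of DPF2 itself, and its sign depends on the scaling. DPF2 was at 0.0657 with upper-quartile scaling and at -0.0182 with library size alone. No test was made between the classes, which are small and hold genes that moved in opposite directions.

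Promoter sequence is shown for 3 of the complex-defining genes: BRD7, which rose and whose run holds a motif match, BICRA, which fell and whose run holds another, and PBRM1, which fell and whose run holds none. BICRA and PBRM1 each have 2 RefSeq starts, of which the farther upstream is shown, and the windows at their other starts hold no match. Each is the run of 120 bases that ends just before a RefSeq transcript start, 5′ to 3′ on the gene's own strand (RefSeq, GRCh38.p14). Capitals mark a match to one of the motifs searched. The PBRM1 run is chr3:52685914-52686033 on the minus strand, the BRD7 run chr16:50368989-50369108 on the minus strand, and the BICRA run chr19:47608076-47608195 on the plus strand.
PBRM1: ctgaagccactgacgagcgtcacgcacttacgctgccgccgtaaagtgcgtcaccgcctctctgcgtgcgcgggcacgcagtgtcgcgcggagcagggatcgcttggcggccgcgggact
BRD7: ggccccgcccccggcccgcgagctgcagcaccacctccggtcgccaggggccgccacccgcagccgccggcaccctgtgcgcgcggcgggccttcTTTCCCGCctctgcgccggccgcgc
BICRA: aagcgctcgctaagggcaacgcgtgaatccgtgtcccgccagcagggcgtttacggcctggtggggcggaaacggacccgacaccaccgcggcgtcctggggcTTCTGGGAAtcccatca

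The RefSeq table gave 47 windows for 26 of the 30 members, each with 250 bases before and 50 after a transcript start. The members without an entry were ARID2, SMARCC1, SMARCC2 and ACTL6A. Searched on both strands, the AP-1 motif TGANTCA was in 2 of the 47 windows (SMARCA2 and SMARCB1) and in 7.71% of all 35116 windows of the same length. The E2F motif TTTCCCGC or TTTGGCGC was in 1 member window, that of BRD7 shown above, and in 2.27% of all windows. The STAT motif TTCNNNGAA was in 2 member windows, those of BICRA (shown above) and BCL11A, and in 7.66% of all windows. No member window held more than 1 of the motifs, and a match describes the letters only. The median GC content of the member windows was 67.0%, against 58.7% over all windows.

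The 2 ATPases both came out slightly lower. SMARCA4 (BRG1; ENSG00000127616.18, chromosome 19, 10960825 to 11079426, plus strand) was at 18.5, 20.2 and 17.3 CPM without DOX and at 16.8, 16.4 and 16.2 CPM with it. Its log2 fold change was -0.18 (SE 0.06, edgeR adjusted p = 0.00949), and without DOX-negative replicate 2, its highest library, the adjusted p was 0.0755. SMARCA2 (BRM; ENSG00000080503.24, chromosome 9, 1980290 to 2193624, plus strand) was at 63.6, 61.3 and 61.6 CPM and then at 60.2, 58.8 and 57.4 CPM. The log2 fold change of -0.08 (SE 0.03) had an edgeR adjusted p of 0.0395, and it lost the call in 9 of 14 alternative analyses, and over the 14 the adjusted p ran from 2.07e-05 to 0.428.

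The core of the complex is built on a pair of SMARCC proteins with a SMARCD protein, SMARCB1 and SMARCE1. SMARCC1 rose from 152.6 ± 1.90 to 183 ± 1.79 CPM (SD, n = 3; log2 fold change 0.26, SE 0.03, edgeR adjusted p = 1.76e-06), with its groups far apart. Its paralog SMARCC2 was at 165 ± 4.62 and 165.4 ± 1.6 CPM and overlapped between the groups (log2 fold change 0.003, SE 0.03, edgeR adjusted p = 0.943). The log2 fold change turned to -0.06 with upper-quartile scaling. With library size alone it was -0.14, and SMARCC2 was then called lower (edgeR adjusted p = 0.000744). SMARCC2 shares 6.01% of its exon bases with MYL6 on the opposite strand, which rose by 0.66 on the log2 scale. SMARCB1, the subunit that grips the nucleosome's acidic patch and is lost in rhabdoid tumours, was at 41.5 ± 2.64 and 42.2 ± 1.55 CPM with overlapping groups (log2 fold change 0.02, SE 0.04, edgeR adjusted p = 0.669). The log2 fold change was -0.04 with upper-quartile scaling. With library size alone it was -0.12, and SMARCB1 was then called lower (edgeR adjusted p = 0.0311).

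The 3 SMARCD paralogs, which join the core to transcription factors, moved apart. SMARCD1 was at 88.9, 85.1 and 89.0 CPM and then at 70.3, 68.7 and 69.6 CPM, a 1.26-fold fall (log2 fold change -0.33, SE 0.03, edgeR adjusted p = 1.24e-07). SMARCD3 was at 11.8, 10.1 and 10.8 CPM and then at 7.22, 6.87 and 8.01 CPM, a 1.47-fold fall (log2 fold change -0.56, SE 0.08, edgeR adjusted p = 8.16e-06). SMARCD3 shares 1.23% of its exon bases with CHPF2 on the opposite strand, which rose (log2 fold change 0.50). SMARCD2 rose from 77.1 ± 1.84 to 84.9 ± 1.08 CPM (SD, n = 3; log2 fold change 0.14, SE 0.03, edgeR adjusted p = 0.00119), a rise that was gone with library size alone (-0.003). SMARCE1, the HMG-box subunit, fell from 12.8 ± 0.0164 to 10.4 ± 0.831 CPM (SD, n = 3; log2 fold change -0.30, SE 0.06, edgeR adjusted p = 0.000601). Its level is uncertain, because 19.8% of its exon bases lie on the same strand as AC073508.2, a protein-coding entry listed at 0 reads in all libraries, and its pseudogene SMARCE1P5 had reads equal to 5.30% of its own. The part of either in the level was not tested.

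The ATPase module carries an actin-related protein, an SS18 protein and a BCL7 protein. ACTL6A, the form of dividing cells, rose from 66.0 ± 1.42 to 75.8 ± 1.67 CPM (SD, n = 3; log2 fold change 0.20, SE 0.03, edgeR adjusted p = 4.71e-05), a call lost with library size alone (adjusted p = 0.123). ACTL6A shares 3.37% of its exon bases with MRPL47 on the opposite strand, which also rose (log2 fold change 0.28). ACTL6B, the neuronal form, had 40, 51 and 35 reads without DOX and 20, 29 and 18 with it, that is 0.402, 0.348 and 0.382 CPM against 0.190, 0.201 and 0.182 CPM. The groups were apart and the log2 fold change was -0.97 (SE 0.29, edgeR adjusted p = 0.00973).

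SS18, the subunit fused to an SSX protein in synovial sarcoma, was at 219.5, 220.8 and 226.3 CPM and then at 163.9, 169.5 and 168.7 CPM. It fell 1.33-fold, with a wide gap between the groups (log2 fold change -0.41, SE 0.03, edgeR adjusted p = 1.13e-08). Its paralog SS18L1, a neuronal form by its usual description, was at 25.1 ± 0.360 and 23.7 ± 0.903 CPM (SD, n = 3) and did not pass (log2 fold change -0.08, edgeR adjusted p = 0.0933). Its groups just failed to overlap, and it passed with upper-quartile scaling (0.00477), library size alone (0.000139) and a filter of 1 CPM (0.0136).

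The 3 BCL7 genes, whose small products sit on the ATPase, rose together. BCL7B was at 54.2, 53.3 and 53.5 CPM and then at 71.1, 72.4 and 75.1 CPM, a 1.36-fold rise (log2 fold change 0.44, SE 0.03, edgeR adjusted p = 3.33e-09). BCL7C was at 14.5, 13.8 and 12.8 CPM and then at 18.3, 17.8 and 17.5 CPM, a 1.30-fold rise (log2 fold change 0.38, SE 0.05, edgeR adjusted p = 1.09e-05). BCL7C shares 11.3% of its exon bases with MIR762HG on the opposite strand, which fell (log2 fold change -0.51). BCL7A rose from 34.1 ± 0.682 to 38.6 ± 1.47 CPM (SD, n = 3; log2 fold change 0.18, SE 0.04, edgeR adjusted p = 0.000482), and was positive but no longer past the test with library size alone (0.04, adjusted p = 0.37).

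BCL11B (ENSG00000127152.18, chromosome 14, 99169287 to 99271524, minus strand), a zinc-finger factor of T cells and neurons that copurifies with BAF, showed the largest change of the 30. It was at 2.98, 2.78 and 3.04 CPM without DOX and at 1.16, 1.07 and 1.03 CPM with it, a 2.7-fold fall (log2 fold change -1.43, SE 0.13, edgeR adjusted p = 7.45e-08). Its paralog BCL11A was at 1.57 ± 0.0953 and 1.77 ± 0.210 CPM with overlapping groups (log2 fold change 0.17, SE 0.14, edgeR adjusted p = 0.344).

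The calls that held in all 14 alternatives were those of SMARCC1, BCL7B, BCL7C and DPF3 among the risers, and of ARID1B, ARID2, PBRM1, PHF10, BICRA, BICRAL, SMARCD1, SMARCD3, SMARCE1, SS18, ACTL6B and BCL11B among the fallers, except that the filter of 1 CPM removed ACTL6B. The other 9 of the 25 calls were lost in at least 1 alternative.

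**Figure D2:**
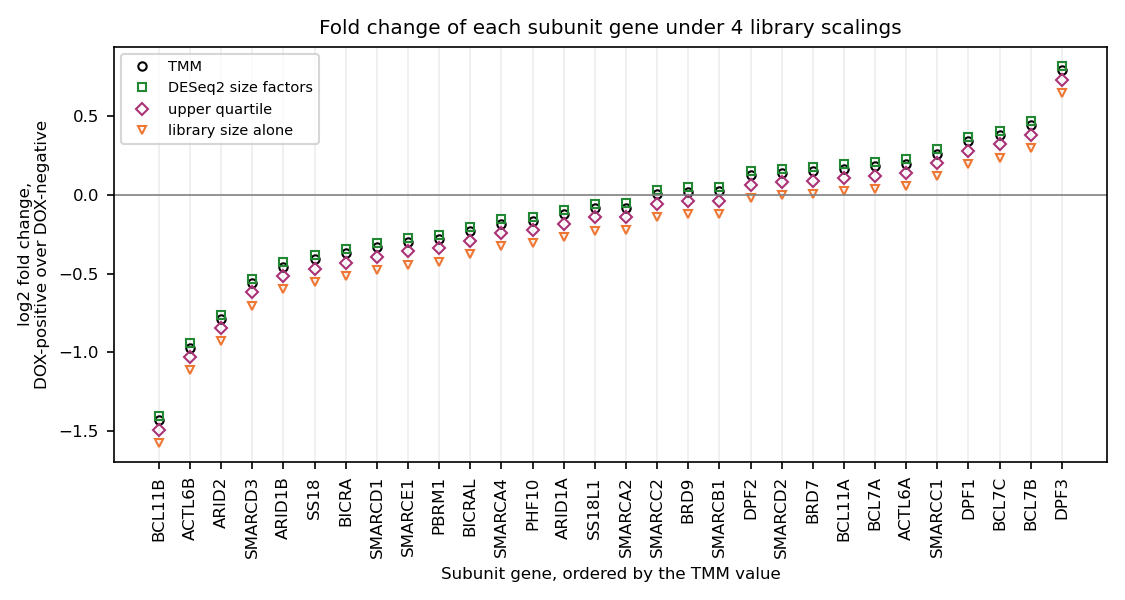
The vertical axis is the log2 fold change (DOX-positive over DOX-negative) of each subunit gene on the horizontal axis, ordered by the value with TMM; each marker shape is 1 of 4 ways of scaling libraries. The scalings shift all genes by nearly the same amount, so that BRD9, SMARCB1, SMARCC2, DPF2 and SMARCD2 lie on different sides of 0 under different scalings while ARID2 and BCL11B stay far below it.

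Shares within a paralog group, which do not depend on how libraries are scaled, were computed from reads per kilobase of deposited gene length. Of 17 shares, 14 had groups that did not overlap. In CPM, a different measure, 62.4% of all genes tested had groups apart. The shares are not all separate results. The SMARCD, DPF and BCL7 groups give a share for every paralog, and these are tied to each other. The share of BRD7 in BRD7 plus BRD9 restates the ratio of BRD7 to BRD9 given below. The 2-sided exact permutation test over 3 against 3 libraries cannot go below p = 0.1, which all 14 reached (adjusted p = 0.121 over the 17). None therefore passes 0.05, and the shares are given as separation between libraries. The same 14 were apart, in the same direction, with reads not divided by length and with the length of the principal transcript, but the size of a share depends on the length. ARID1A made up 83.5%, 83.6% and 83.8% of the ARID1 pair without DOX and 86.9%, 86.2% and 86.6% with it, ARID1B having fallen more. With the principal transcript length its mean share was 62.8% and then 68.0%.

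SMARCC1 went from 52.3%, 53.2% and 52.5% of the SMARCC pair to 57.1%, 57.1% and 57.2%. With the principal transcript length its mean went from 37.2% to 41.5%, so which SMARCC paralog is the more abundant turns with the length. SMARCD2 went from 50.2%, 52.1% and 51.6% of the SMARCD group to 59.4%, 60.5% and 59.4%, while SMARCD1 went from 44.2%, 43.1% and 43.4% to 37.0%, 36.1% and 36.6%. BCL11A went from 14.7%, 17.3% and 15.3% of the BCL11 pair to 37.7%, 34.5% and 36.4%, with both genes low. With the principal transcript length its mean went from 34.8% to 61.8%, and with no length from 34.9% to 62.0%, so that BCL11A then became the larger of the pair. SS18 went from 88.0%, 87.9% and 88.5% of the SS18 pair to 85.7%, 85.8% and 85.2%. These 5 shares were apart by more than the spread within either group.

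The shares of SMARCA4 in the ATPase pair overlapped, at 25.5%, 28.0% and 24.9% without DOX and 24.8%, 24.7% and 25% with it (exact permutation p = 0.2). SMARCA2 thus gave most of the length-scaled ATPase signal in every library. BICRA was 23.8%, 24.4% and 23.1% of the BICRA pair and then 22.7%, 20.3% and 23.2%, again overlapping (exact permutation p = 0.2). BCL7C was 13.0%, 12.7% and 11.9% of the BCL7 group and then 13.1%, 12.4% and 12%, overlapping as well. Its mean difference was -0.0113 percentage points, and it ran from -0.333 to 0.252 with a library left out. BCL7B went from 66.1%, 66.6% and 67.3% to 69.2%, 68.9% and 70.1%.

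**Figure D3:**
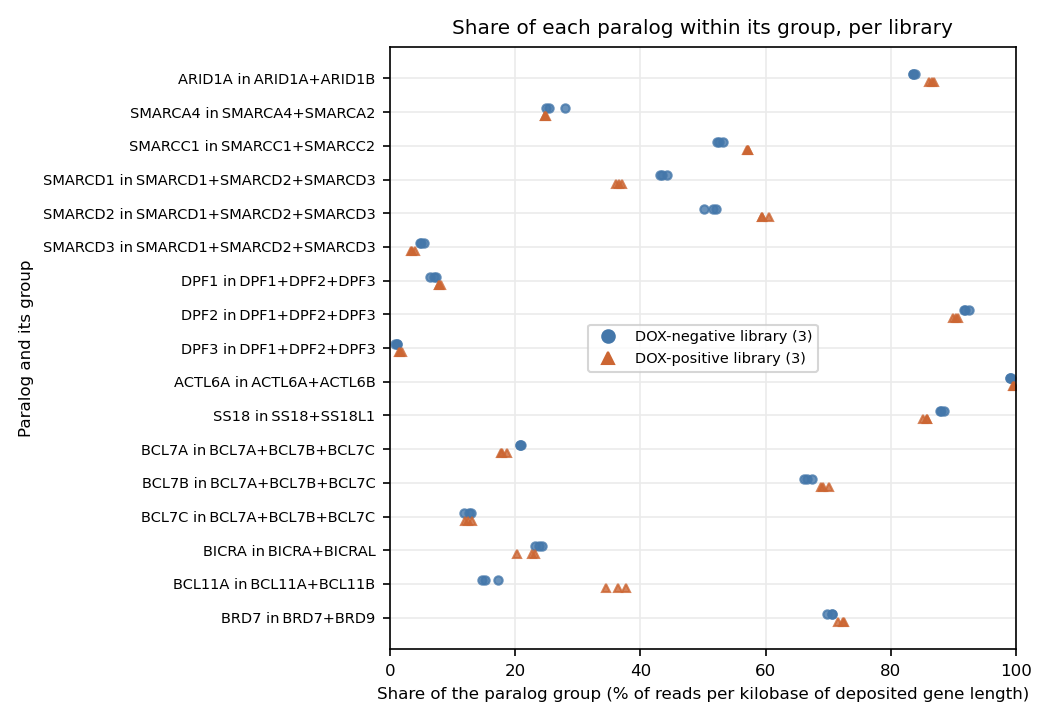
Each row is a paralog and its group, and the horizontal axis is its share in percent of the group's reads per kilobase of deposited gene length; circles are the 3 DOX-negative and triangles the 3 DOX-positive libraries. The SMARCC1, SMARCD1, SMARCD2 and BCL11A rows separate most, and the SMARCA4, BCL7C and BICRA rows overlap.

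Ratios between subunits that define different complexes were computed in the same way. ARID2 over the sum of ARID1A and ARID1B was 0.743, 0.730 and 0.763 without DOX and 0.470, 0.512 and 0.479 with it, the widest gap of the 5 ratios. PHF10 over the sum of the DPF genes was 1.02, 1.05 and 1.04 and then 0.837, 0.843 and 0.822. Both place a PBAF subunit over its BAF counterpart, and both were lower in every DOX-positive library.

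PBRM1 over the ARID1 sum was 0.577, 0.577 and 0.570 and then 0.505, 0.562 and 0.534. That separation rests on the gene lengths: with reads not divided by length, or divided by the length of the principal transcript, the groups overlapped (exact permutation p = 0.4 for each). BICRA plus BICRAL over the ARID1 sum was 0.916, 0.910 and 0.90 and then 0.840, 0.866 and 0.856. BRD7 over BRD9 was 2.40, 2.31 and 2.39 and then 2.63, 2.61 and 2.52, a ratio of a PBAF to an ncBAF subunit that was higher with DOX. The sizes of these ratios depend on the length too. With the principal transcript length BRD7 over BRD9 had a mean of 0.845 and then 0.924, below 1 in both groups. ARID2 over the ARID1 sum then went from 0.422 to 0.288, and BICRA plus BICRAL over it only from 0.408 to 0.400, with both still apart. With the deposited lengths all 5 ratios had groups apart, at the exact permutation p of 0.1 that is the smallest possible (adjusted p = 0.1). These are not all separate results, since several have the ARID1 sum as denominator and BRD7 over BRD9 was also counted as a share.

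**Figure D4:**
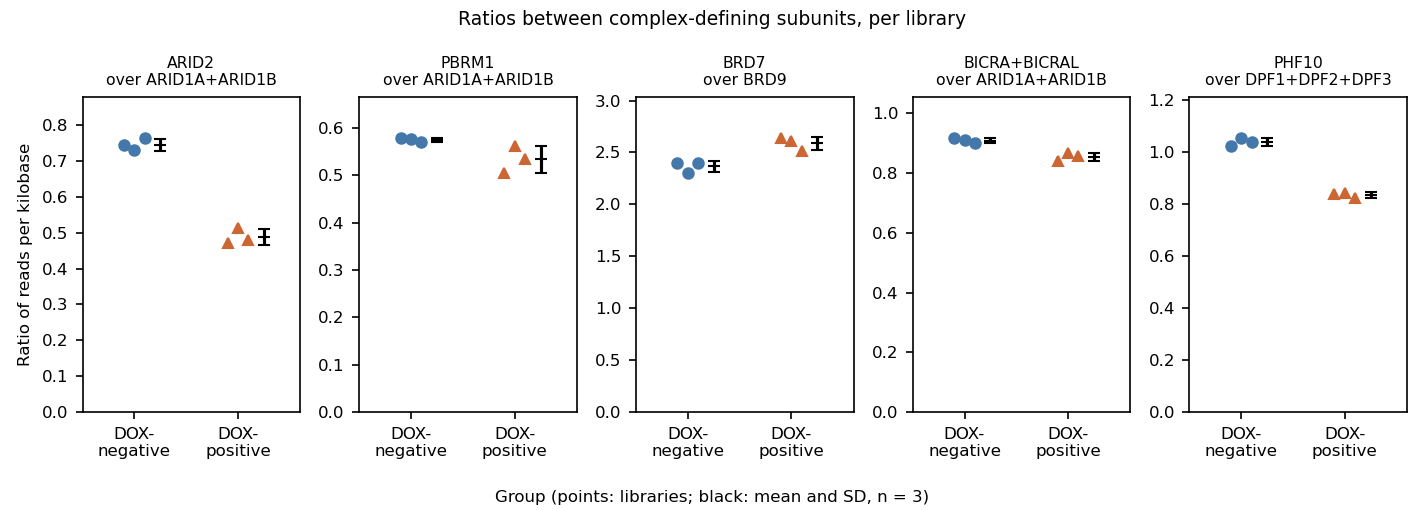
Each panel is a ratio of reads per kilobase between subunits of different complexes (vertical axis, from 0) in the 3 DOX-negative (circles) and 3 DOX-positive (triangles) libraries, with mean and SD in black. The ARID2 panel falls from 0.730 to 0.763 to 0.470 to 0.512, and BRD7 over BRD9 is the only panel that is higher with DOX.

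Levels between genes were compared within each group as TPM (reads per kilobase, scaled to the same sum in each library), computed from the deposited counts and gene lengths. TPM carry no TMM factor, so only the order within a group is read from them. SS18 was first in both groups, with a mean of 134.8 TPM without DOX and 87.4 TPM with it. Without DOX it was followed by SMARCD2 (78.5), SMARCC1 (74.6), ACTL6A (67.1), SMARCC2 (67.0), SMARCD1 (66.7) and BCL7B (61.9 TPM), and the library ranges of neighbours among these 6 overlapped. With DOX the order was SMARCC1 (77.0), SMARCD2 (74.4), BCL7B (72.3), ACTL6A (66.2), SMARCC2 (57.8) and SMARCD1 (45.5 TPM), and each from BCL7B down was apart from the next.

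ARID1A came eighth in both groups, at 52.2 and 41.2 TPM. ARID2 changed place most among the 30 genes, from rank 9 at 46.6 TPM, in overlap with BICRAL below it, to rank 14 at 23.2 TPM, in overlap with PBRM1 above it. The other complex-defining genes of this range were BICRAL (43.3 and 31.7), PHF10 (43.2 and 33.2), DPF2 (38.4 and 36.0), PBRM1 (35.9 and 25.4) and BRD7 (34.3 and 32.8 TPM). DPF2 and BRD7 each moved up by 3 ranks with DOX, as did BCL7B and BCL7C.

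The lower part of the order ran from BCL7A (19.3 and 18.9 TPM) and SS18L1 (18.2 and 14.8) through BRD9 (14.5 and 12.7), BICRA (13.5 and 8.98), SMARCA2 (12.5 and 10.1) and BCL7C (11.6 and 13.0) to ARID1B (10.2 and 6.41), SMARCB1 (9.37 and 8.19) and SMARCD3 (7.80 and 4.54 TPM). SMARCA4 (4.40 and 3.35), DPF1 (2.89 and 3.16) and SMARCE1 (2.57 and 1.8 TPM) kept ranks 24, 25 and 26 in both groups, each apart from the next. BCL11B, ACTL6B, DPF3 and BCL11A were lowest, BCL11A last at 0.239 and 0.232 TPM. Of the 29 pairs of neighbours, 14 had library ranges apart without DOX and 22 with it, and the ranges of the rest overlapped. Such overlap does not mean that the order changed from library to library. SMARCC1 was above ACTL6A in each DOX-negative library (78.4, 71.0 and 74.4 against 71.0, 64.1 and 66.1 TPM), though their ranges overlapped.

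The order also depends on the length used, compared here by the mean over the 6 libraries. The deposited length equals the union of all annotated exons in GENCODE 29 for 14 of the 30 members, which lowers the TPM of a gene with long minor transcripts. ARID1B, for example, had 44677 bases deposited against 7962 in its principal transcript, and it moved from rank 22 to rank 16 with the latter. PHF10 moved from rank 9 to 3, SMARCC2 from 6 to 2, DPF2 from 11 to 5 and BRD9 from 17 to 11, while SS18 stayed first and SMARCA4 stayed at rank 24. Among the genes that moved down were BICRAL from rank 10 to 17, SMARCD2 from 2 to 7, SMARCC1 from 3 to 8 and SS18L1 from 16 to 21.

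**Figure D5:**
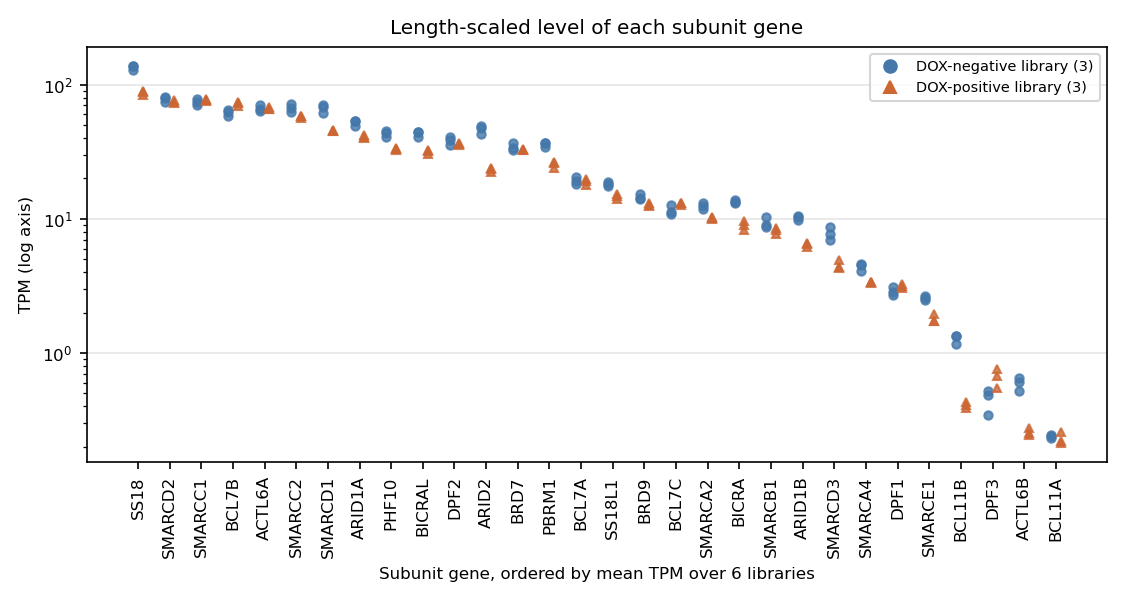
The vertical axis is TPM on a log axis and the horizontal axis lists the subunit genes by mean TPM over the 6 libraries; circles are DOX-negative and triangles DOX-positive libraries. SS18 is highest in both groups and BCL11A lowest. ARID2 is at rank 9 of the DOX-negative means (46.6 TPM) and at rank 14 of the DOX-positive means (23.2 TPM).

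The other ATP-dependent remodellers gave a comparison. Of 46 genes of the ISWI, CHD and INO80 or SRCAP/TIP60 families, 13 rose, 18 fell and 15 did not pass, and the median log2 fold change was -0.03. The share that passed was 53.8% for ISWI, 70.0% for CHD and 73.9% for INO80 and SRCAP/TIP60, against 56.5% of all genes tested. With a filter of 1 CPM in 3 libraries, 5751 of 15279 genes were higher and 5543 lower. Scaled by library size alone, 6 of the 46 other remodellers were higher and 31 lower, while all genes tested split into 4689 higher and 9579 lower. Among 13 ISWI genes 3 rose and 4 fell, and those with the smallest p-values were CECR2, a bromodomain partner of the ISWI ATPases, from 43.5 to 21.0 CPM (log2 fold change -1.05, edgeR adjusted p = 8.12e-13), and POLE3, a histone-fold subunit, from 53.8 to 72.4 CPM (0.43, 3.14e-09). Of 10 CHD genes 7 fell and 3 did not pass. The smallest p-values were those of CHD6 from 97.0 to 78.1 CPM (-0.31, 2.49e-07) and CHD9 from 136.1 to 109.4 CPM (-0.31, 3.63e-07). Of 23 INO80 and SRCAP/TIP60 genes 10 rose and 7 fell, led by INO80C from 14.6 to 29.2 CPM (1.0, 9.27e-12) and ZNHIT1 from 17.0 to 27.1 CPM (0.67, 3.05e-08). The differences between these families and the SWI/SNF members were not tested.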

How the data were processed

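Polyadenylated RNA of 6 DU-145 cultures, 3 per group, was sequenced from stranded libraries (TruSeq Stranded mRNA, per the labels' protocols). The authors deposited unnormalized read counts per gene, and the length of each gene. CASAVA 1.8.2, STAR 2.7.9a and DESeq2 1.24.0, and the build GRCh38.p7, stand in the submitters' processing notes with no role or order. No counting tool, annotation or strand setting is given in the sources used here. The members and gene lists were chosen with earlier results of these data known. Groups came from the sample titles.

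Counts were tested with edgeR 4.0.16 (R 4.3.3): quasi-likelihood test, group as the only term, TMM, default filterByExpr (minimum count 10, minimum total 15), Benjamini-Hochberg adjustment over 24695 genes, threshold 0.05. The labels speak of cultures in triplicate and not of separate days, so p-values reflect only how these cultures vary. CPM values use TMM-scaled library sizes. Shares and ratios were tested by exact permutation (scipy 1.17.1). The test was tried on simulated counts. Positions and overlaps came from GENCODE 29 (GRCh38). Values in every library are given for the 12 members of 1 complex, both ATPases and every other called member with an absolute log2 fold change of at least 0.3. From each other family the 2 called genes with the smallest p-values are named. Alternatives were other scalings and filters, DESeq2 1.42.0, limma-voom (limma 3.58.1), the replicate block, each library left out, and other lengths for shares and ratios, of which the principal transcript length was added after seeing the data. A planned comparison of paralog protein sequences was not run. Of the marker lists looked at, 1 is not reported here.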

Additional observations from a re-analysis of the deposited data

How the results depend on the processing

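With library size alone, 4 members, 1 BAF-only, 0 PBAF-only and 3 shared genes were higher, and 6 of the other remodellers were higher and 31 lower. All genes tested then split into 4689 higher and 9579 lower. The log2 fold change was then -0.0182 for DPF2, -0.12 for BRD9, -0.12 for SMARCB1, -0.14 for SMARCC2 and -0.0033 for SMARCD2. With upper-quartile scaling it was -0.0397 for BRD9, -0.0356 for SMARCB1 and -0.0561 for SMARCC2, and with a filter of 1 CPM -0.0173, -0.0128 and -0.0335. With a library left out SMARCC2 ran from -0.0186 (without DOX-negative replicate 2) to 0.0458. Lower BAF-only genes numbered 1 with DESeq2 size factors and 1 to 2 with a library left out, the call of ARID1A being lost without DOX-negative replicate 3 or DOX-positive replicate 2. The difference in BCL7C share, -0.0113 percentage points, was 0.296 without length scaling, 0.197 with the principal transcript length and -0.333 to 0.252 with a library left out. In each case the cause was not tested.

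With the replicate block, 10 members were higher and 15 lower, and over all genes 6670 and 6833. Deviations of same-numbered libraries correlated at -0.07, -0.03 and 0.01, and those of the other pairs at -0.06 to 0.08. No shared deviation was seen, but this cannot settle whether the numbers pair the cultures. DPF3, ACTL6B, BCL11A and BCL11B rest on the fewest reads.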
